A study of Mus musculus with 12 samples.

Results

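Satellite cells of mice at postnatal day 21 were compared with satellite cells of fetuses at E17.5, an age in embryonic days. The comparison rests on 6 of the 12 single-colour expression arrays of the series, the 3 labelled adolescent and the 3 labelled fetal, and the 3 adult and 3 aged arrays were used for the estimate of the spread and for side by side values. All mice were heterozygous for Pax7-ZsGreen, a green fluorescent reporter read from the Pax7 locus, and the strain label is C57BL/6. Fetal cells came from whole forelimb and hindlimb of 4 pooled mice and adolescent cells from hindlimb of 6 pooled mice, so the tissue sampled differs with the stage. Adult cells came from hindlimb of 8 pooled mice aged 2 to 3 months, and aged cells from hindlimb of 8 pooled mice over 1 year old. After digestion of the muscle by collagenase and dispase, green cells were collected by flow sorting. Gates were chosen for each age, and wild-type SV129 mice served as the negative control. It is not stated whether the arrays of 1 stage came from different pools of mice, so p-values reflect the spread among these arrays alone, and that spread may be technical. Because RNA was taken from bulk cells, fewer cells of a type and less RNA per cell cannot be told apart in any result given here.

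Satellite cells are the stem cells of skeletal muscle, lie between the muscle fibre and its basement membrane, and are marked by the transcription factor Pax7. In the fetus, Pax7 cells divide and feed growing fibres. In the weeks after birth they go on adding nuclei to fibres, and they then settle into the quiescent state of mature muscle, from which injury can wake them.

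Values are log2 RMA signals, in which a difference of 1 is 2-fold, and signals of different genes were not compared with each other. Differences are adolescent minus fetal with the standard error (SE) of a limma fit over all 4 stages (n = 3 arrays each), and the p-values are Benjamini-Hochberg adjusted over 19938 genes. A gene passed at an adjusted p under 0.05, and rose or fell is said only of genes that passed. Olfactory and vomeronasal receptor genes, which these cells are not known to use, gave the background: 95 percent of 1210 receptor probe sets averaged at or below 5.39 in fetal and 5.46 in adolescent cells, called the receptor signal here. Where the lower stage lay within it, the fold is given as a lower bound against the receptor signal, and where both stages did, no fold is given. Counts, medians and plots use the measured differences. Counts called those of the averaged replicates come from the same fit after the mean of replicates 2 and 3 took their place in every stage.

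The sort was checked on 15 defining genes of satellite cells, of which 12 rose, 0 fell and 3 did not pass. Their mean level ran from 9.63 to 9.72 on the fetal and 10.47 to 10.52 on the adolescent arrays. Pax7 read 10.36 to 10.51 on the fetal and 10.84 to 11.03 on the adolescent arrays, far above the receptor signal in both stages. Of 13 endothelial markers, 12 rose and 0 fell, and their mean level ran from 6.90 to 7.72 on the fetal and 8.42 to 9.0 on the adolescent arrays. Replicate 1 was the highest of the 3 arrays in both stages for that list and for 28 of the 54 other gene lists used here, and none of the 13 was within the receptor signal in both stages. Of 12 macrophage and leukocyte markers, 1 rose and 1 fell, among them Lyz2 (1.89 ± 0.29) and Cd68 (-0.79 ± 0.18), and the list mean ran from 6.20 to 6.26 on the fetal and 6.25 to 6.69 on the adolescent arrays. Replicates of a stage correlated at 0.992 to 0.999 over all genes, and fetal with adolescent arrays at 0.965 to 0.969. Falls among satellite cell genes numbered 1 without fetal replicate 1 and 1 without adult replicate 1. Among endothelial genes the averaged replicates gave 7 rises and 0 falls, with 1 rise and 0 falls among macrophage genes.

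Among 19938 genes, 3739 (18.8%) passed. Adolescent cells had the higher level for 2008 (10.1%) and the lower level for 1731 (8.68%). Counts of rises and falls in every gene list are to be read beside these shares. The differences of all genes had a median of 0.02, with the middle 50 percent between -0.13 and 0.16. At least 2-fold differences were found for 559 higher (2.80%) and 432 lower genes (2.17%). At least 4-fold differences were found for 123 higher and 87 lower genes, and at least 8-fold differences for 27 higher and 15 lower genes. The fetal and adolescent arrays did not overlap for 8303 genes (41.6%). Of the genes that passed, 137 lay within the receptor signal in both stages. Centring each array on its median moved the split to 1688 higher and 2170 lower genes. In both stages replicates 2 and 3 were closer to each other than to replicate 1, and averaging them into 1 sample left 872 higher and 600 lower genes. With those averages, 68 of 110 counts of rises or falls in the gene lists moved by over 1.5 times, all toward fewer, and 16 counts became 0.

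**Figure D1:**
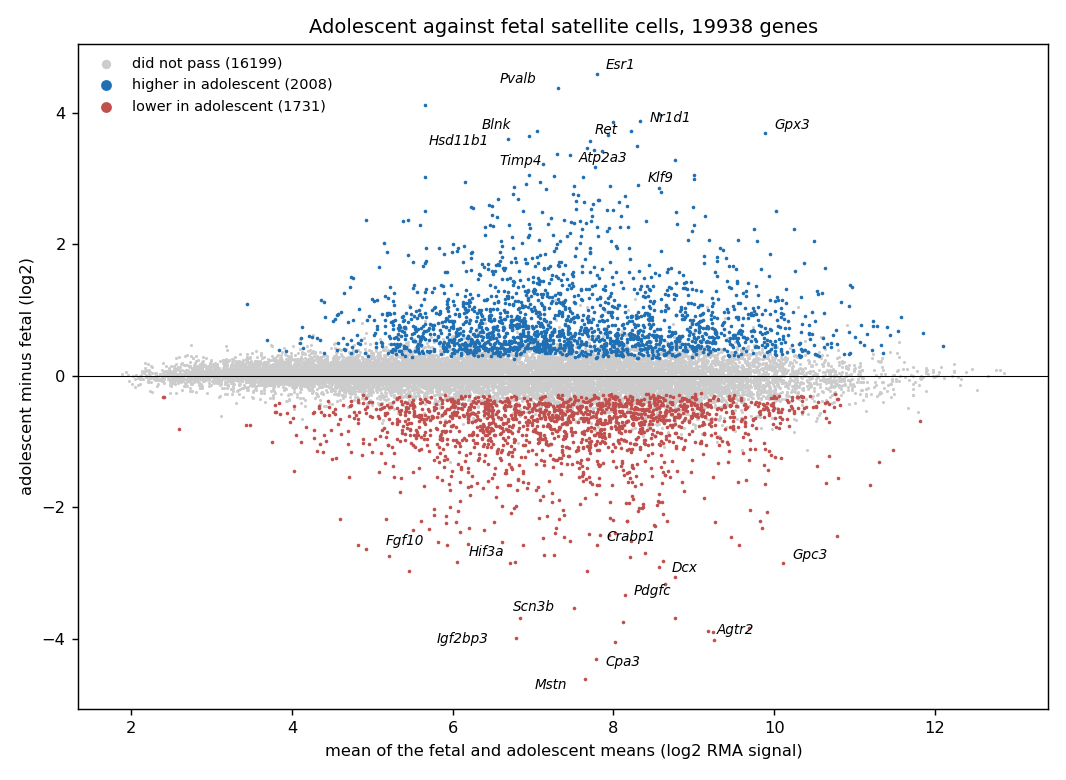
Each point is a gene, with the mean of the fetal and adolescent means on the x axis and the adolescent minus fetal difference on the y axis, both in log2 RMA signal. The 2008 genes that passed higher are blue, the 1731 that passed lower are red, and Esr1 and Mstn stand at the top and bottom.

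Most genes of the glucocorticoid response were higher at postnatal day 21 than in the fetus. Glucocorticoids are adrenal steroids that act through the receptor encoded by Nr3c1. Of 20 genes of the receptor and its response, 14 rose and 0 fell, and the median difference was 1.20. Hsd11b1, the enzyme that turns inactive corticosteroids into the active hormone, read 4.72, 5.10 and 4.87 on the fetal arrays and 8.98, 8.23 and 8.26 on the adolescent arrays. All 3 fetal values lay within the receptor signal, and the rise was at least 8.55-fold (adjusted p = 7.20e-07). Klf9, a zinc finger factor induced by glucocorticoids, read 7.11, 6.59 and 6.89 on the fetal arrays and 9.83, 9.62 and 9.81 on the adolescent arrays, a 7.42-fold rise without overlap (adjusted p = 9.66e-09). Sgk1, a kinase induced by the hormone, rose 5.10-fold (2.35 ± 0.11). The mineralocorticoid receptor Nr3c2, which also binds glucocorticoids, rose by 2.14 ± 0.16, and the glucocorticoid receptor Nr3c1 itself by 0.67 ± 0.10. Glul, glutamine synthetase, rose by 1.71 ± 0.12 and Errfi1, a feedback inhibitor of the epidermal growth factor receptor, by 2.04 ± 0.22. The metallothioneins Mt1 (1.42 ± 0.22) and Mt2 (1.38 ± 0.16), Zbtb16 (1.11 ± 0.12) and Tsc22d3 (1.06 ± 0.13) rose as well. Per1, a clock gene that the hormone can induce, did not pass (0.01 ± 0.17). The list mean was 7.67, 7.62 and 7.60 on the fetal and 8.99, 8.80 and 8.84 on the adolescent arrays, so replicate 1 was the highest in both stages, as for the endothelial markers, whose part in these rises was not tested.

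Most clock genes that passed were higher in adolescent cells. The circadian clock is a loop in which the factors Clock and Arntl (also called Bmal1) switch on the genes of their own repressors and of output factors. Of 18 clock genes, 10 rose, 1 fell and 7 did not pass, with a median of 0.68. The sample details used here give no time of day of collection, and its part in these differences was not tested. Arntl read 6.22, 6.11 and 6.14 on the fetal arrays and 7.21, 8.36 and 8.28 on the adolescent arrays. The adolescent arrays did not overlap the fetal ones, though replicate 1 lay well under the other 2 adolescent arrays. Clock rose by 0.68 ± 0.10. Among repressors, Nr1d1 rose most (3.88 ± 0.12), its relative Nr1d2 by 2.05 ± 0.19, and Bhlhe41 at least 3.43-fold from a fetal 4.15 within the receptor signal. The output factors Dbp (1.83 ± 0.25), Hlf (1.30 ± 0.10) and Tef (0.68 ± 0.11), which bind the D-box, all rose. So did Rora (1.14 ± 0.11), an activator of Arntl, and the period gene Per3 (1.06 ± 0.20), while the cryptochrome Cry1 fell (-0.45 ± 0.12). Cry1 did not pass without fetal replicate 1, 2 or 3 or adolescent replicate 1 or 3 (-0.47 to -0.40). Falls among clock genes numbered 0 without fetal replicate 1, 2 or 3 or adolescent replicate 1 or 3. Among clock genes the averaged replicates gave 9 rises and 0 falls.

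Promoter windows of RefSeq (GRCm38.p6), 250 bases before to 50 after a start, were searched on both strands for short motifs. Windows were found for 16 of the 18 clock genes. The E-box CACGTG, the site of Clock and Arntl, was in the windows of 5 clock genes (Bhlhe41, Ciart, Cry1, Per1 and Tef), or 27.3% of 22 windows, against 7.15% of all 32851 windows. It was also in 7 of the 33 windows (21.2%) of the sterol genes described below and in 5 of the 25 windows of the glucocorticoid genes. The D-box TTATGTAA was in the window of Per3 alone among clock genes, and in 0.938% of all windows. The AGGTCA site bound by Nr1d1 and Rora was in the windows of Arntl, Clock, Nfil3, Nr1d2 and Per1. That is 22.7% of the 22 clock windows, against 16.3% of all windows. The other 2 lists had like shares, with the site in 7 of the 33 sterol windows (21.2%) and 5 of the 25 glucocorticoid windows. Ciart, Nfil3 and Per1 did not pass. The matches describe letters and not binding. The glucocorticoid element, AGAACA and TGTTCT with 3 bases between, was found in 3 of all 32851 windows, of which 1 is a window of Sgk1. Among the 16 glucocorticoid genes with a window, Sgk1 alone held the element, in 1 of 25 windows. The 2 windows of Esr1 held none of these 4 motifs, nor the oestrogen element, AGGTCA and TGACCT with 3 bases between, which contains the AGGTCA site, nor the sterol element, ATCAC and CCAC with 1 base between. The sterol element was also in none of 33 sterol windows, and in 0.234% of all windows. Stretches with the matches in capitals are shown for the genes described above, on the strand of each gene, at chr15:81802516-81802581 (plus strand) for Tef, chr6:145865538-145865603 (minus) for Bhlhe41, chr4:151044786-151044900 (minus) for Per3 and chr10:21993671-21993745 (plus) for Sgk1.
Tef: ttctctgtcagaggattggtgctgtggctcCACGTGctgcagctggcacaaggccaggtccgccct
Bhlhe41: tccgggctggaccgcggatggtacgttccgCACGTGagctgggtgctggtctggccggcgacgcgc
Per3: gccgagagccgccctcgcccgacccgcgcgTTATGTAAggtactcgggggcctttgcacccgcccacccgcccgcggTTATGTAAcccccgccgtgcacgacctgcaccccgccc
Sgk1: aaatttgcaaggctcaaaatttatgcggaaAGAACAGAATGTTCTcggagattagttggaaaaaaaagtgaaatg

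Of 28 other nuclear receptors, 6 rose and 4 fell, with a median of 0.10. Esr1, the oestrogen receptor alpha, read 5.48, 5.65 and 5.38 on the fetal arrays and 10.0, 10.09 and 10.16 on the adolescent arrays. The 3 arrays of each stage lay close together and far from the other stage, and no other gene had as large a measured rise (adjusted p = 6.82e-11). The fetal values lay near the fetal receptor signal of 5.39. Rarg, a retinoic acid receptor, rose by 1.18 ± 0.14, Nr4a3 by 1.21 ± 0.26 and the vitamin D receptor Vdr at least 1.20-fold from within the receptor signal. Rxrg (-1.16 ± 0.10), Nr2f2 (-0.98 ± 0.16), Nr4a2 (-0.84 ± 0.19) and Esrrg (-0.44 ± 0.09) fell. Thra, a thyroid hormone receptor, did not pass (0.14 ± 0.10). Among nuclear receptor genes the averaged replicates gave 3 rises and 2 falls.

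Large rises outside those groups came from genes of diverse function. Blnk, an adaptor of B cell receptor signalling, read 4.88, 5.32 and 5.17 on the fetal arrays and 8.60, 8.84 and 8.87 on the adolescent arrays, at least 10.4-fold higher in adolescent cells. Clmn rose 11.9-fold and Cp, ceruloplasmin, a copper-carrying ferroxidase, 11.2-fold. Ptprz1, a receptor tyrosine phosphatase, read 6.35, 5.39 and 6.08 on the fetal arrays and 9.39, 9.41 and 9.40 on the adolescent arrays. Its adolescent values were almost equal, while fetal replicate 2 lay under the other fetal arrays. Cd200, a membrane ligand that restrains myeloid cells, rose 10.7-fold. Pde7b, a cyclic AMP phosphodiesterase, rose 9.74-fold, Map3k5 (ASK1), a stress kinase, 8.31-fold and Il17ra, the interleukin 17 receptor, 7.41-fold. Lama3, a laminin chain of basement membranes, read 5.98, 5.52 and 5.06 on the fetal arrays and 8.44, 8.89 and 8.87 on the adolescent arrays, the fetal arrays spreading over almost 1 log2 unit without reaching the adolescent ones. Popdc2, a membrane protein that binds cyclic AMP in striated muscle, rose by 2.86 ± 0.11 and Sorl1, a sorting receptor, by 2.75 ± 0.12.

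Some of the large rises were highest on the arrays with the highest endothelial markers. Adgrl4, an adhesion receptor of endothelial cells, read 6.49, 5.07 and 5.30 on the fetal arrays and 9.01, 8.30 and 8.37 on the adolescent arrays. Replicate 1 was the highest array in both stages, as it was for the endothelial list. Aqp1, a water channel, read 7.77, 6.80 and 7.0 on the fetal arrays and 10.24, 9.84 and 9.88 on the adolescent arrays. Car4, a membrane carbonic anhydrase, read 5.77, 5.05 and 5.25 on the fetal arrays and 8.55, 7.92 and 7.90 on the adolescent arrays, and replicate 1 was again the highest in each stage. Timp4, an inhibitor of metalloproteases, read 5.54, 5.71 and 5.58 on the fetal arrays and 9.54, 8.71 and 8.68 on the adolescent arrays, and here only the adolescent replicate 1 stood high. The endothelial list mean was 6.90 to 7.72 on fetal and 8.42 to 9.0 on adolescent arrays, and its part in these rises was not tested.

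Large falls also came from genes of diverse function. Mstn, the growth inhibitor myostatin, fell at least 22.4-fold, and Myh3, the embryonic myosin heavy chain, at least 9.30-fold. Scn3b, a sodium channel subunit, read 9.39, 9.12 and 9.30 on the fetal arrays and 5.90, 5.69 and 5.64 on the adolescent arrays, an 11.5-fold fall (adjusted p = 4.49e-09). Pdgfc, a platelet-derived growth factor, read 9.66, 9.91 and 9.85 on the fetal arrays and 6.48, 6.38 and 6.55 on the adolescent arrays, 10.1-fold lower in adolescent cells. For both genes the arrays of a stage lay close together, with a far wider gap between the stages. Cep41, a centrosome and cilium protein, was 8.98-fold lower. Gpc3, a glypican that restrains hedgehog and growth signals, read 11.59, 11.49 and 11.52 on the fetal arrays and 9.06, 8.51 and 8.51 on the adolescent arrays. Adolescent cells still held it well above the receptor signal, 7.16-fold under the fetal level. Dcx, a microtubule protein of migrating neurons, read 10.03, 9.97 and 10.05 on the fetal arrays and 7.53, 6.99 and 7.11 on the adolescent arrays, 7.02-fold lower. Plag1, a growth-promoting zinc finger factor, fell at least 3.08-fold to within the receptor signal. Fgf10, a growth factor of limb buds, read 7.19, 7.23 and 7.23 on the fetal arrays and 4.54, 4.74 and 4.65 on the adolescent arrays and so fell at least 3.37-fold. Falls of Car3 (-2.57 ± 0.24), a carbonic anhydrase, Fabp5 (-2.44 ± 0.24), a fatty acid carrier, Ccn3 (-2.52 ± 0.16), a matricellular protein, Tspan9 (-2.51 ± 0.10) and Cited1 (-2.45 ± 0.17), a transcriptional coactivator, were of like size. Rps6ka6, a ribosomal S6 kinase, fell at least 6.66-fold, Slc44a5, a choline transporter-like protein, at least 4.03-fold and the small X-linked protein Bex1 at least 4.03-fold.

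The large changes were set beside the later stages, whose arrays the adolescent minus fetal difference does not use. The adolescent minus fetal difference was compared with the aged minus adult difference, which shares no array with it. This asks whether they differ, and the adolescent to adult interval does not enter. Passing therefore does not make a change particular to the fetal to adolescent interval. This difference of differences passed for 2382 genes (11.9%), and for 7226 without adult replicate 1. Of the 991 genes with at least a 2-fold change it passed for 787, and of the 80 largest changes for 79. Both the 991 and the 80 were chosen by the first difference, which enters the difference of differences, so neither count is independent support. The exception was Adgrl4 (1.33 ± 0.45, adjusted p = 0.0760), which was 7.48 on average in adult and 9.09 in aged cells. Without fetal replicate 1 Adgrl4 passed too (1.77, adjusted p = 0.00354), though the count there was still 79 of the 80. Leaving out each array in turn, 78 or 79 of the 80 and 734 to 851 of the 991 passed. Aged against adult cells differed at 697 genes (3.50%).

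Not every gene that rose stayed at its adolescent level. The adult minus adolescent differences given here share the adolescent arrays with the first comparison. Adult replicates 2 and 3 had a raised background, with receptor probe sets averaging 4.47 and 4.50 against 3.83 on adult replicate 1. The adolescent arrays gave 3.87 to 3.91. Aged replicate 1 was raised too, at 4.31 against 3.81 and 3.84 on aged replicates 2 and 3. The part of this background in the adult and aged values and in the difference of differences was not tested. Esr1 lay near its adolescent level later on (adult mean 9.89, aged mean 9.86), with a difference of differences of 4.61 ± 0.15. Ret, the receptor of glial-derived growth factors, read 6.53, 6.30 and 6.23 on the fetal arrays and 9.81, 10.17 and 10.24 on the adolescent arrays, and its adult and aged means were 9.0 and 8.25. Adult cells were lower than adolescent cells by 1.08 ± 0.13 (adjusted p = 2.67e-04). Atp2a3, a calcium pump of the endoplasmic reticulum, read 5.75, 5.75 and 5.84 on the fetal arrays and 8.89, 9.22 and 9.31 on the adolescent arrays. Its adult mean was 7.16 and its aged mean 6.98, an adult minus adolescent difference of -1.98 ± 0.17 (adjusted p = 4.44e-05). Tac4, a tachykinin peptide, read 5.38, 5.52 and 5.47 on the fetal arrays and 8.06, 8.42 and 8.62 on the adolescent arrays, with an adult mean of 7.07 (difference -1.30 ± 0.18, adjusted p = 5.13e-04) and an aged mean of 6.33. Hsd11b1 had an adult mean of 9.26 and an aged mean of 9.91 against 8.49 in adolescent cells, and the adult minus adolescent difference did not pass (0.78 ± 0.26, adjusted p = 0.0542). Klf9 went on rising, with later means of 10.52 and 10.76 against 9.75 (0.76 ± 0.13, adjusted p = 0.00174).

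Genes that fell also differed in what followed. Agtr2, the type 2 angiotensin receptor, lay at 7.13 to 7.33 on the adolescent arrays and had means of 6.86 in adult and 6.96 in aged cells. Gpc3 was lower still in adult (6.46, difference -2.24 ± 0.14, adjusted p = 2.42e-06) and aged cells (6.95). Dbx1, a homeobox factor, read 9.14, 9.05 and 9.07 on the fetal arrays and 6.60, 6.95 and 7.15 on the adolescent arrays, and then 9.22 to 9.50 on the adult and 9.85 to 10.07 on the aged arrays. The 3 adolescent arrays were its lowest in the series, below every array of the other 3 stages, and the adult minus adolescent difference was 2.51 ± 0.14 (adjusted p = 1.40e-06).

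**Figure D2:**
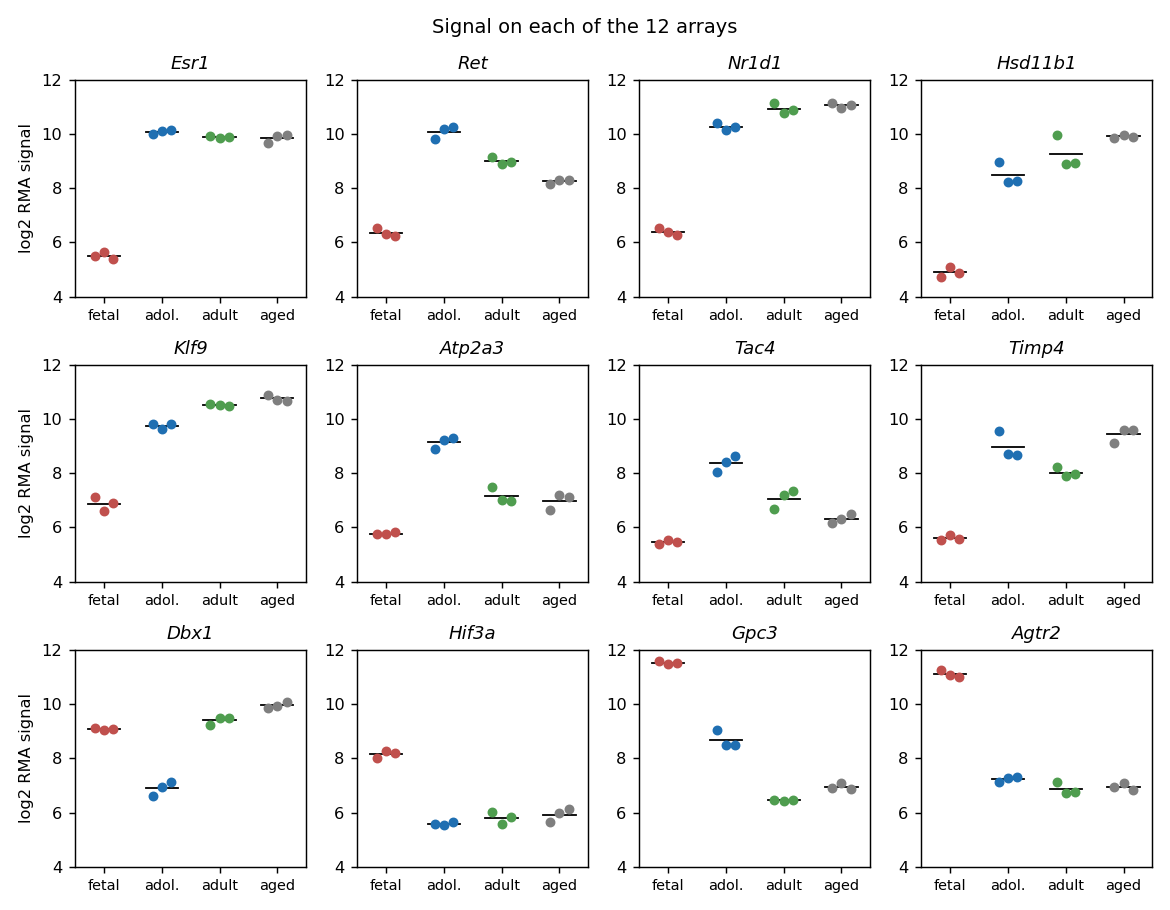
Each panel shows 1 gene, with log2 RMA signal on the y axis (the same range in all panels), a point for each of the 3 arrays of a stage and a bar at the stage mean. Esr1 kept its adolescent level in adult and aged cells, Atp2a3 and Tac4 stood highest in adolescent cells, and Dbx1 was lowest there.

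**Figure D3:**
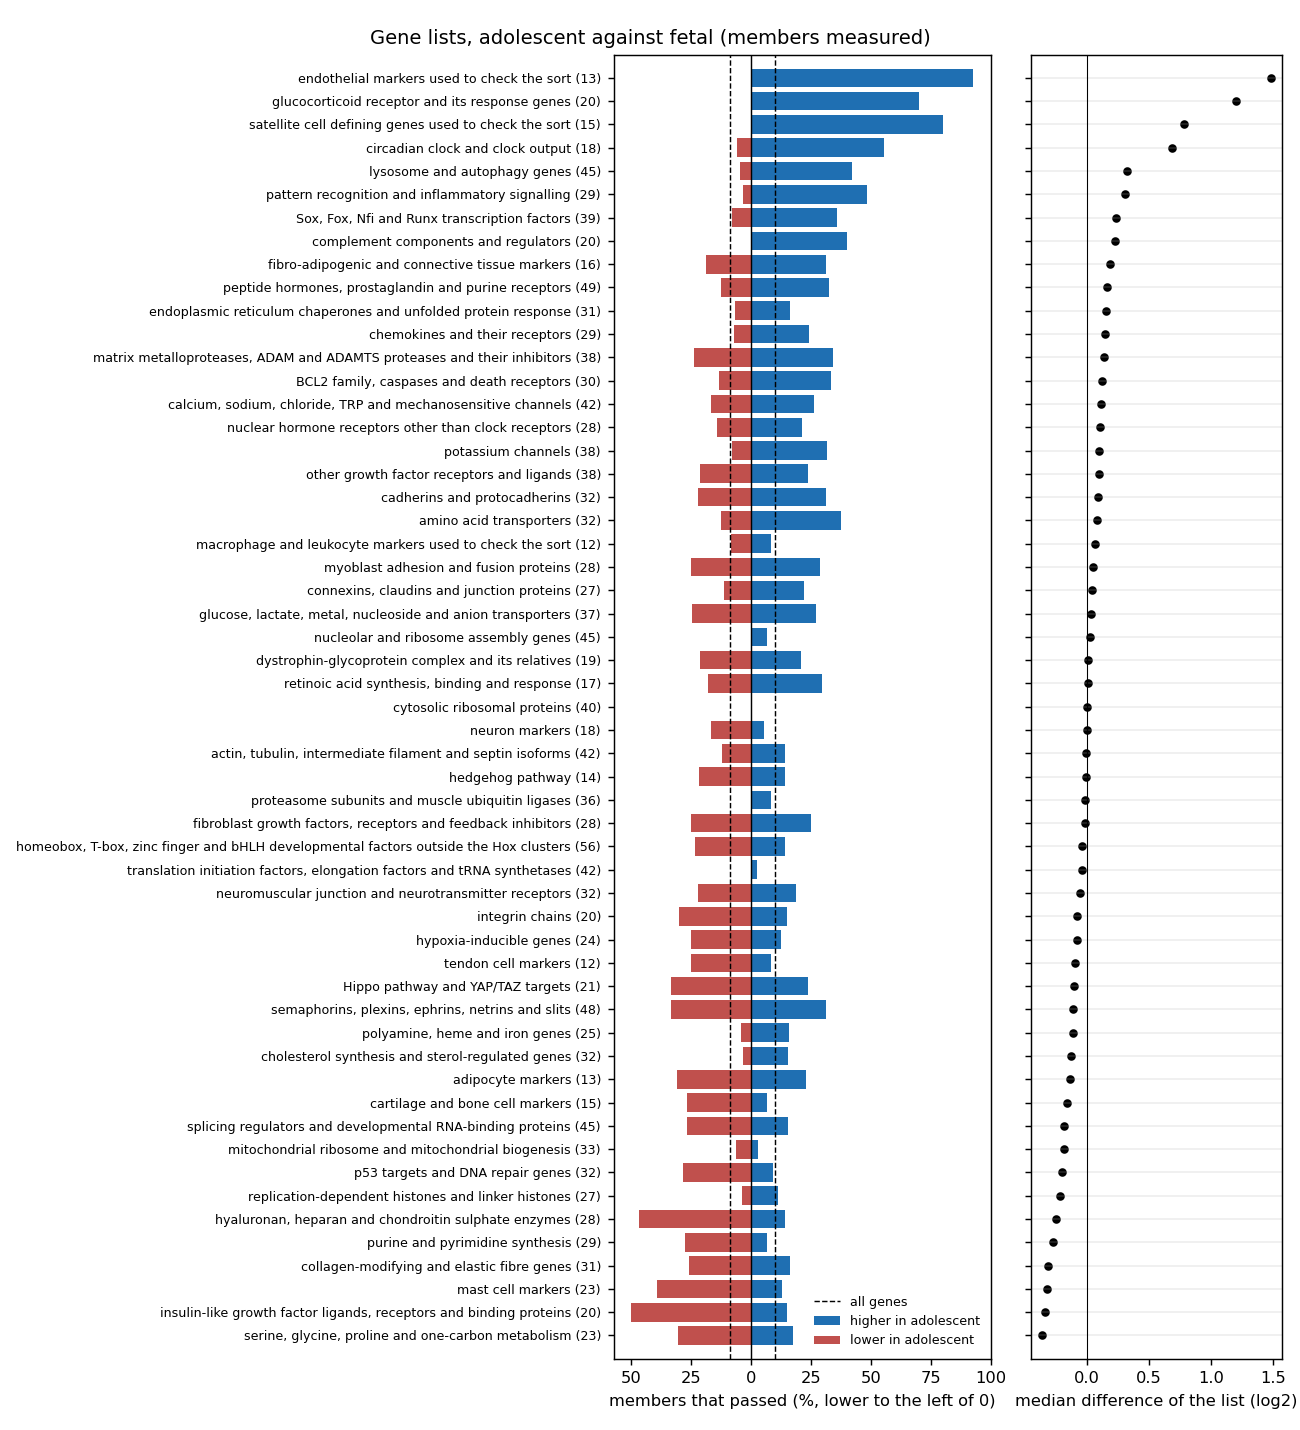
Bars give, for each gene list, the percentage of measured members that were higher (right) or lower (left) in adolescent cells, dashed lines mark 10.1% and 8.68% for all genes, and points give the median difference of the list in log2. Lists are ordered by that median, from endothelial markers at the top to serine and one-carbon metabolism at the bottom.

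Peptide signals and their receptors moved in both directions. Of 49 peptide hormone, prostaglandin and purine receptor genes, 16 rose and 6 fell (median 0.16). Among ligands and their processing, galanin (Gal) rose at least 11.4-fold, and Ace, which makes angiotensin II, read 6.33, 6.23 and 6.02 on the fetal arrays and 9.42, 9.31 and 9.35 on the adolescent arrays. Ace rose without overlap (3.17 ± 0.16), while Agtr2 fell (-3.87 ± 0.13) and angiotensinogen, Agt, fell (-0.85 ± 0.15). Penk, the enkephalin precursor, fell by 1.95 ± 0.24. Among receptors, Calcr, the calcitonin receptor, read 9.02, 9.04 and 9.01 on the fetal arrays and 10.90, 10.86 and 10.89 on the adolescent arrays. Its partner Ramp2 rose by 1.78 ± 0.16, the prostaglandin receptors Ptger4 and Ptgfr by 1.59 ± 0.13 and 1.16 ± 0.20, and the thyrotropin receptor Tshr by 1.21 ± 0.17. The purine receptors P2ry1 (1.18 ± 0.10) and P2ry2 (1.0 ± 0.14) rose, and P2ry14 rose at least 2.20-fold from within the receptor signal. Among receptors of R-spondins, Lgr4 fell (-0.86 ± 0.11), and Lgr5 fell at least 2.51-fold to within the receptor signal. Ace and Ramp2 are also abundant in endothelial cells, whose markers rose, and their part was not tested.

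Insulin-like growth factors (IGFs) drive growth mainly through the receptor Igf1r. Of 20 IGF ligands, receptors and binding proteins, 3 rose and 10 fell, with a median of -0.34. The ligand Igf2 read 12.01, 12.05 and 12.05 on the fetal arrays and 10.94, 10.87 and 10.93 on the adolescent arrays, a 2.17-fold fall without overlap, and Igf1 did not pass (0.39 ± 0.18). The receptors Igf1r (-0.59 ± 0.11) and Igf2r (-0.40 ± 0.10) fell. Binding proteins, which hold IGFs outside the cell, split: Igfbp2 (-1.98 ± 0.12) and Igfbp3 (-1.35 ± 0.23) fell, and Igfbp7 (1.24 ± 0.25) rose. Igfbp7 is also strong in vessels, and the part of the endothelial rise in it was not tested. Rises among IGF genes numbered 1 without fetal replicate 2 or 3 or adolescent replicate 3, and falls numbered 6 without adolescent replicate 2. Among IGF genes the averaged replicates gave 0 rises and 4 falls.

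Of 28 fibroblast growth factor genes, 7 rose and 7 fell (median -0.02). The receptor Fgfr1 read 10.34, 10.42 and 10.42 on the fetal arrays and 11.32, 11.54 and 11.52 on the adolescent arrays, a 2.09-fold rise. Its feedback inhibitors Spry1 (0.83 ± 0.09) and Spred2 (0.40 ± 0.09) rose, and Fgfr4, the main receptor of muscle progenitors, did not pass (0.22 ± 0.12). Fgf13 fell with Fgf10 (-0.69 ± 0.13), and Fgf11 rose (1.41 ± 0.10). Rises among FGF genes numbered 4 without fetal replicate 2 or 3 or adolescent replicate 1. Among FGF genes the averaged replicates gave 3 rises and 2 falls.

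Other growth factor receptors gave 9 rises and 8 falls among 38 genes (median 0.10). Gfra1, the co-receptor through which glial-derived factors reach Ret, rose by 0.98 ± 0.13 beside the 3.72 ± 0.13 of Ret. Egfr, the epidermal growth factor receptor, read 9.37, 9.48 and 9.48 on the fetal arrays and 10.62, 10.52 and 10.61 on the adolescent arrays. Its relative Erbb3 read 7.95, 7.82 and 7.97 on the fetal arrays and 6.54, 6.64 and 6.70 on the adolescent arrays. The pair moved in opposite directions, Egfr up by 1.14 ± 0.10 and Erbb3 down by 1.28 ± 0.09. The collagen receptor Ddr2 rose (1.31 ± 0.14), as did Pdgfrb (1.24 ± 0.17), while the ligands Pdgfa (-1.26 ± 0.19) and Pdgfc (-3.34 ± 0.10) fell. Mertk, a receptor that recognises dying cells, fell by 1.53 ± 0.17. Among receptor kinase genes the averaged replicates gave 7 rises and 4 falls.

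Of 14 hedgehog genes, 2 rose and 3 fell (median -0.01). The transducer Gli3 fell by 1.52 ± 0.17, and Hhip (1.10 ± 0.20) and Gas1 (0.85 ± 0.13), surface proteins that bind hedgehog ligands, rose. Ptch1, the receptor, did not pass (0.22 ± 0.14). In the Hippo pathway, in which TEAD factors carry YAP and TAZ to DNA, 5 of 21 genes rose and 7 fell (median -0.11). Tead2 read 9.23, 9.43 and 9.53 on the fetal arrays and 8.0, 7.79 and 7.86 on the adolescent arrays, 2.85-fold lower, and Tead4 also fell (-0.57 ± 0.14), while Tead1 did not pass (-0.15 ± 0.13). The target Ankrd1 rose (1.14 ± 0.14). Of 17 retinoid genes, 5 rose and 3 fell (median 0.00). Aldh1a1, which makes retinoic acid, read 5.74, 5.46 and 4.79 on the fetal arrays and 8.07, 8.26 and 8.28 on the adolescent arrays, a rise of at least 7.01-fold from a fetal mean within the receptor signal. Crabp1, which holds retinoic acid in the cytosol, read 9.11, 9.13 and 9.0 on the fetal arrays and 6.47, 6.56 and 6.50 on the adolescent arrays. Crabp1 fell 5.93-fold, its relative Crabp2 fell at least 3.03-fold to within the receptor signal, and the reductase Dhrs3 rose (0.97 ± 0.10). Falls among hedgehog genes numbered 1 without adolescent replicate 2. Rises among Hippo genes numbered 2 or 3 without fetal replicate 2 or 3 or adolescent replicate 1, and falls numbered 3 or 4 without fetal replicate 1 or 3 or adolescent replicate 2 or 3. Falls among retinoid genes numbered 5 without adult replicate 1. Among hedgehog genes the averaged replicates gave 2 rises and 1 fall, with 1 rise and 2 falls among Hippo genes.

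Guidance molecules changed often and in both directions. Of 48 semaphorin, plexin, ephrin, netrin and slit genes, 15 rose and 16 fell, with a median of -0.11. Among ligands, Sema3a read 9.25, 9.09 and 9.30 on the fetal arrays and 7.35, 6.56 and 6.58 on the adolescent arrays. All 3 adolescent values lay below the fetal ones (-2.38 ± 0.21), replicate 1 the least. Sema3c fell by 2.18 ± 0.22, Slit2 by 1.73 ± 0.11 and the membrane-bound Sema5a by 2.01 ± 0.12. The receptor Plxnd1 read 8.52, 7.71 and 7.56 on the fetal arrays and 10.33, 10.33 and 10.41 on the adolescent arrays, a 5.38-fold rise, and its partner Nrp1 rose by 1.06 ± 0.21. Ephrin receptors split, Epha3 (at least 4.26-fold, to within the receptor signal) and Epha7 (-1.70 ± 0.14) falling and Ephb1 (1.68 ± 0.17), Epha4 (1.15 ± 0.20) and Epha2 (1.04 ± 0.14) rising. Plxnd1, Nrp1 and Robo4 (0.74 ± 0.17) are known in vessels, and the part of the endothelial rise in them was not tested. Sema6a rose (0.70 ± 0.10). Among guidance genes the averaged replicates gave 8 rises and 11 falls.

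Adhesion proteins of the same family moved in opposite directions. Of 32 cadherins and protocadherins, 10 rose and 7 fell (median 0.08). Cdh15, the M-cadherin of satellite cells, rose (0.43 ± 0.10). Cdh11, known in mesenchyme, read 9.31, 8.07 and 7.93 on the fetal arrays and 6.43, 6.17 and 6.39 on the adolescent arrays, a 4.31-fold fall, fetal replicate 1 being the highest array. The N-cadherin Cdh2 fell by 0.69 ± 0.20. Cdh2 did not pass without fetal replicate 1, 2 or 3 or adolescent replicate 2 or 3 (-0.72 to -0.57). Cdh5, the cadherin of endothelial junctions, rose by 1.66 ± 0.26 with the other endothelial markers. Of 20 integrin chains, 3 rose and 6 fell (median -0.08). The fibronectin receptor chain Itga4 read 7.19, 7.14 and 7.40 on the fetal arrays and 5.77, 5.60 and 5.56 on the adolescent arrays. The laminin receptor chain Itga6 read 9.48, 9.11 and 9.24 on the fetal arrays and 8.10, 7.92 and 7.89 on the adolescent arrays. Both fell without overlap, by 1.60 ± 0.23 and 1.31 ± 0.13. Itga7, the laminin receptor chain of mature muscle, rose by 0.47 ± 0.11, and Itga3 by 1.01 ± 0.10. The shared partner Itgb1 did not pass (0.08 ± 0.13). Falls among cadherin genes numbered 4 without adolescent replicate 2 or 3. Among cadherin genes the averaged replicates gave 6 rises and 2 falls, with 1 rise and 4 falls among integrin genes.

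In the extracellular matrix, enzymes and inhibitors moved as well. Of 38 proteases and inhibitors, 13 rose and 9 fell (median 0.14). Plau, the urokinase that activates plasminogen, read 7.73, 7.57 and 7.63 on the fetal arrays and 10.16, 9.83 and 9.85 on the adolescent arrays, a 4.94-fold rise, and Mmp2 rose by 1.26 ± 0.14. Adam19 fell (-1.09 ± 0.13), and the membrane-type protease Mmp16 fell at least 2.82-fold to within the receptor signal. Of the tissue inhibitors, Timp4 (3.37 ± 0.21), Timp2 (0.95 ± 0.12) and Timp3 (0.52 ± 0.12) rose, and Timp1 fell (-1.69 ± 0.24). Of 31 collagen-modifying and elastic fibre genes, 5 rose and 8 fell (median -0.31). Lox, which crosslinks collagen and elastin, fell by 1.80 ± 0.19, and the microfibril proteins Mfap2 and Mfap4 by 1.91 ± 0.20 and 1.75 ± 0.12. Pcolce2, an enhancer of procollagen processing, read 5.67, 5.66 and 5.89 on the fetal arrays and 9.04, 8.30 and 8.42 on the adolescent arrays, a 7.19-fold rise, and Loxl1 rose by 0.92 ± 0.13. Among collagen-modifying genes the averaged replicates gave 2 rises and 7 falls.

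Of 28 genes of hyaluronan and sulphated glycan synthesis, 4 rose and 13 fell, with a median of -0.25. Sulf1, which trims sulphate from heparan, read 7.73, 6.54 and 6.57 on the fetal arrays and 9.19, 9.21 and 9.22 on the adolescent arrays. Its relative Sulf2 read 8.72, 7.62 and 7.65 on the fetal arrays and 6.68, 6.23 and 6.29 on the adolescent arrays. Fetal replicate 1 was the highest fetal array for both. The pair moved in opposite directions, a 4.79-fold rise of Sulf1 and a 3.03-fold fall of Sulf2. The chondroitin synthase Chsy1 (-1.64 ± 0.09), the sulphotransferase Chst3 (-1.40 ± 0.14) and the hyaluronan receptor Cd44 (-1.21 ± 0.14) fell, and the hyaluronan synthase Has2 fell at least 2.29-fold to within the receptor signal. Hpse, heparanase, rose (1.43 ± 0.14). Among proteoglycan genes the averaged replicates gave 3 rises and 8 falls.

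Of 38 potassium channel genes, 12 rose and 3 fell (median 0.10). Kcnma1, the large-conductance calcium-activated channel, read 6.55, 6.24 and 6.26 on the fetal arrays and 8.68, 8.63 and 8.68 on the adolescent arrays, a 4.98-fold rise, Kcna1 rose by 1.31 ± 0.19 and Kcnn3 by 0.94 ± 0.14. Kcnh2 fell (-0.85 ± 0.10). Among 42 calcium, sodium, chloride and mechanosensitive channels, 11 rose and 7 fell (median 0.11). Of the mechanosensitive pair, Piezo1 rose (0.68 ± 0.13) and Piezo2 fell (-0.96 ± 0.20). Of intracellular calcium release channels, Itpr2 rose (1.37 ± 0.12) and Ryr1, the channel of muscle fibres, fell (-1.07 ± 0.18). Among potassium channel genes the averaged replicates gave 3 rises and 1 fall, with 8 rises and 4 falls among ion channel genes.

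Of 32 neuromuscular junction and transmitter receptor genes, 6 rose and 7 fell (median -0.06). The acetylcholine receptor chain Chrna1 read 9.20, 9.19 and 9.18 on the fetal arrays and 10.26, 10.41 and 10.55 on the adolescent arrays. Chrng, the chain of the fetal receptor, read 7.97, 7.93 and 8.03 on the fetal arrays and 6.70, 6.77 and 6.86 on the adolescent arrays. Chrna1 rose 2.33-fold and Chrng fell 2.30-fold. Musk (0.96 ± 0.10) and Rapsn (0.90 ± 0.16), which cluster the receptor, rose, while the agrin receptor Lrp4 fell (-1.03 ± 0.11). Chrna7 fell by 1.49 ± 0.15. Among neuromuscular genes the averaged replicates gave 3 rises and 5 falls.

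The dystrophin complex links the cytoskeleton of muscle to laminin. Of 19 genes of the complex, 4 rose and 4 fell (median 0.00). Dmd, dystrophin, read 8.0, 7.63 and 7.72 on the fetal arrays and 8.97, 9.14 and 9.18 on the adolescent arrays, a 2.49-fold rise. Utrophin (Utrn, 0.74 ± 0.14) and dystroglycan (Dag1, 0.74 ± 0.08) rose, and delta-sarcoglycan (Sgcd, -1.30 ± 0.17), dystrobrevin alpha (Dtna, -1.13 ± 0.16) and Sntb1 (-0.93 ± 0.18) fell. Of 28 adhesion and fusion genes, 8 rose and 7 fell (median 0.04). The fusion protein Mymk rose (0.90 ± 0.29) and its partner Mymx fell (-0.55 ± 0.15). Mymk did not pass without fetal replicate 1, 2 or 3 or adolescent replicate 2 or 3 (0.78 to 0.94). Mymx did not pass without fetal replicate 1 or 2 or adolescent replicate 1 or 2 (-0.55 to -0.49). Myof, a ferlin of fusing myoblasts, fell by 1.26 ± 0.12, and the tetraspanin Cd9 rose by 1.51 ± 0.15. Of 42 cytoskeletal isoforms, 6 rose and 5 fell (median -0.01), and Actb (0.00 ± 0.08) and Vim (-0.02 ± 0.08) did not pass. Falls among fusion genes numbered 2 to 4 without fetal replicate 1, 2 or 3 or adolescent replicate 2 or 3. Falls among cytoskeleton genes numbered 8 without adult replicate 1. Among dystrophin genes the averaged replicates gave 2 rises and 3 falls, with 2 rises and 2 falls among fusion genes and 3 rises and 2 falls among cytoskeleton genes.

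Transporters and metabolic enzymes gave uneven counts. Of 32 amino acid transporters, 12 rose and 4 fell (median 0.08). Slc7a8 read 7.03, 6.68 and 6.94 on the fetal arrays and 9.70, 9.09 and 9.13 on the adolescent arrays, a 5.36-fold rise, and Slc43a2 (2.36 ± 0.15), which like it carries large neutral amino acids, and the glycine transporter Slc6a9 (1.95 ± 0.12) rose. Slc38a4 fell (-1.59 ± 0.23), and Slc7a5, the widely used large neutral amino acid carrier, did not pass (0.01 ± 0.13). Of 37 transporters of sugars, metals, lactate and nucleosides, 10 rose and 9 fell (median 0.03). The zinc carrier Slc39a14 rose (2.12 ± 0.20), and the glucose carrier Slc2a1 fell (-0.51 ± 0.12). Falls among amino acid transport genes numbered 2 without fetal replicate 2 or adolescent replicate 2 or 3. Among amino acid transport genes the averaged replicates gave 8 rises and 1 fall, with 7 rises and 4 falls among nutrient transport genes.

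Of 32 cholesterol synthesis and sterol-regulated genes, 5 rose and 1 fell (median -0.13), so 18.8% passed, the same share as over all genes (18.8%). Scd1, a fatty acid desaturase, rose by 1.67 ± 0.13 and the cholesterol exporter Abca1 by 1.26 ± 0.18, and the synthesis genes Hmgcs1 (-0.15 ± 0.18) and Fdft1 (-0.16 ± 0.10) did not pass. Of 23 serine and one-carbon genes, 4 rose and 7 fell (median -0.36), with falls of the asparagine synthetase Asns (-1.08 ± 0.18) and the thymidylate synthase Tyms (-1.33 ± 0.37). Tyms did not pass without fetal replicate 1, 2 or 3 or adolescent replicate 2 or 3 (-1.39 to -1.16). Of 29 nucleotide synthesis genes, 2 rose and 8 fell (median -0.28), with falls of Dut (-0.79 ± 0.17) and Umps (-0.74 ± 0.15). Of 25 polyamine, heme and iron genes, 4 rose and 1 fell (median -0.12), so 20% passed, near the 18.8% of all genes. Erfe, a hormone that lowers hepcidin, read 5.96, 6.25 and 5.99 on the fetal arrays and 9.58, 10.06 and 10.12 on the adolescent arrays, and the polyamine-degrading Sat1 rose by 1.13 ± 0.15. The heavy ferritin chain Fth1 rose by 0.67 ± 0.09. Falls among sterol genes numbered 4 without fetal replicate 1 and 4 without adult replicate 1. Rises among serine genes numbered 2 without fetal replicate 1 or 3 or adolescent replicate 2 or 3, and falls numbered 2 or 3 without fetal replicate 2 or 3 or adolescent replicate 2 or 3. Rises among nucleotide genes numbered 1 without fetal replicate 2 or 3 or adolescent replicate 2 or 3, and falls numbered 3 to 5 without fetal replicate 2 or 3 or adolescent replicate 2 or 3 and 14 without adult replicate 1. Falls among iron and heme genes numbered 0 without fetal replicate 3 or adolescent replicate 2 or 3 and 2 without adult replicate 1. Among sterol genes the averaged replicates gave 4 rises and 0 falls, with 1 rise and 0 falls among serine genes, 0 rises and 0 falls among nucleotide genes and 3 rises and 0 falls among iron and heme genes.

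Few genes of protein synthesis passed. Of 40 cytosolic ribosomal proteins, 0 rose and 0 fell in limma (median 0.00), and 0 had an unadjusted p under 0.05. Of 45 ribosome assembly genes, 3 rose and 0 fell, and of 42 translation factors and tRNA synthetases, Eef1a2 alone rose (0.84 ± 0.13) and 0 fell. Of 36 proteasome and ubiquitin ligase genes, 3 rose and 0 fell: the ligase genes Asb5 (1.41 ± 0.25) and Fbxo32 (1.12 ± 0.14), the latter known as atrogin, and the immunoproteasome subunit Psmb9 (0.60 ± 0.11). Rises among translation genes numbered 2 without adult replicate 1, and falls numbered 1 without fetal replicate 1 and 3 without adult replicate 1. Rises among assembly genes numbered 0 or 1 without fetal replicate 1, 2 or 3 or adolescent replicate 2 or 3 and 5 without adult replicate 1, and falls numbered 1 without fetal replicate 1 and 2 without adult replicate 1. Rises among ubiquitin genes numbered 7 without adult replicate 1, and falls numbered 1 without adult replicate 1. Among assembly genes the averaged replicates gave 0 rises and 0 falls.

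Of 45 lysosome and autophagy genes, 19 rose and 2 fell, with a median of 0.32. The cathepsin Ctsz read 9.35, 9.37 and 9.41 on the fetal arrays and 10.65, 10.45 and 10.48 on the adolescent arrays. Ctsl, another cathepsin, read 9.06, 9.10 and 9.22 on the fetal arrays and 10.02, 10.25 and 10.21 on the adolescent arrays. Both rose without overlap (1.15 ± 0.09 and 1.03 ± 0.10), as did the cathepsins Ctsd (0.75 ± 0.10) and Ctsf (1.12 ± 0.11) and Npc1 (0.93 ± 0.10), which moves cholesterol out of lysosomes. The autophagosome proteins Gabarapl1 (1.11 ± 0.11) and Map1lc3b (0.80 ± 0.11), the receptor Sqstm1 (0.73 ± 0.13) and Tfeb (0.78 ± 0.12), a master regulator of lysosome genes, rose. Ctsk fell (-0.79 ± 0.15). Of 31 endoplasmic reticulum genes, 5 rose and 2 fell (median 0.15), so 22.6% passed, near the 18.8% of all genes. Herpud1 rose by 1.17 ± 0.12 and Xbp1 by 0.53 ± 0.10, and the chaperone Hspa5 did not pass (-0.05 ± 0.12). Falls among lysosome genes numbered 1 without fetal replicate 1, 2 or 3 or adolescent replicate 1, 2 or 3. Rises among endoplasmic reticulum genes numbered 3 without fetal replicate 2, and falls numbered 1 without fetal replicate 2 or 3 or adolescent replicate 2 or 3. Among lysosome genes the averaged replicates gave 13 rises and 1 fall, with 1 rise and 0 falls among endoplasmic reticulum genes.

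Of 45 splicing regulators and developmental RNA-binding proteins, 7 rose and 12 fell (median -0.19). Among muscleblind splicing factors, Mbnl3 read 8.48, 8.33 and 8.53 on the fetal arrays and 6.21, 6.06 and 6.12 on the adolescent arrays, a 4.98-fold fall. Mbnl1 (0.46 ± 0.10) and Mbnl2 (0.52 ± 0.09) rose. Igf2bp3 read 8.94, 8.61 and 8.79 on the fetal arrays and 4.80, 4.77 and 4.83 on the adolescent arrays, down at least 9.98-fold to within the receptor signal, and Igf2bp1 fell at least 6.34-fold. The Musashi protein Msi1 (-0.88 ± 0.12) and the polypyrimidine tract factor Ptbp2 (-0.52 ± 0.09) fell. Cpeb1, which controls polyadenylation in the cytoplasm, rose by 2.24 ± 0.12 and Cpeb4 by 0.91 ± 0.17. Among RNA-binding genes the averaged replicates gave 2 rises and 5 falls.

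Of 39 Sox, Fox, Nfi and Runx factors, 14 rose and 3 fell (median 0.23). Runx1 read 7.88, 7.65 and 7.74 on the fetal arrays and 9.10, 8.94 and 9.03 on the adolescent arrays, a 2.41-fold rise, Foxo1 rose by 1.05 ± 0.10 and Foxo3 by 0.61 ± 0.09. Nfix, a switch from embryonic to fetal muscle programmes, rose by 0.47 ± 0.09. Sox11 (-1.02 ± 0.21), Sox12 (-1.03 ± 0.11) and Sox6 (-0.52 ± 0.12) fell. Sox17 (at least 1.91-fold, from within the receptor signal), Sox18 (0.97 ± 0.16) and Sox7 (0.82 ± 0.16), factors of endothelial cells, rose beside the endothelial markers, and the part of those cells was not tested. Of 56 other developmental factors, 8 rose and 13 fell (median -0.04). Plagl1 (-1.55 ± 0.17), an imprinted growth regulator, Hmga2 (-1.23 ± 0.18), Meis1 (-1.08 ± 0.17), Twist2 (-1.07 ± 0.18) and Osr2 (-1.08 ± 0.13) fell, and Prrx1 (1.09 ± 0.20) and Myc (0.66 ± 0.13) rose. Rises among Sox and Fox genes numbered 9 without fetal replicate 2 or 3. Rises among developmental factor genes numbered 4 or 5 without fetal replicate 2 or 3 or adolescent replicate 1 or 3. Among Sox and Fox genes the averaged replicates gave 5 rises and 1 fall, with 1 rise and 9 falls among developmental factor genes.

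Of 27 histone genes, 3 rose and 1 fell (median -0.22), with a rise of H2bc4 (1.01 ± 0.16) and a fall of H1f10 (-0.92 ± 0.14). Histone genes are near copies of each other, so their probe sets may share signal. Of 32 p53 target and DNA repair genes, 3 rose and 9 fell (median -0.20). The repair nuclease Exo1 fell (-1.08 ± 0.25), and Btg2 (1.16 ± 0.14), an antiproliferative target of p53, and Eda2r (0.77 ± 0.17) rose. Of 24 hypoxia genes, 3 rose and 6 fell (median -0.08). Epas1, an oxygen-regulated factor, read 7.16, 6.18 and 6.21 on the fetal arrays and 9.30, 8.73 and 8.81 on the adolescent arrays. Its relative Hif3a read 8.01, 8.28 and 8.19 on the fetal arrays and 5.58, 5.53 and 5.64 on the adolescent arrays. Epas1 rose 5.38-fold and Hif3a fell 5.96-fold, while Hif1a did not pass (-0.37 ± 0.17). Epas1 is abundant in endothelial cells, and the part of their markers in it was not tested. The hypoxia targets Egln3 (-1.38 ± 0.15) and Pdk1 (-1.29 ± 0.15) fell. Rises among histone genes numbered 1 without fetal replicate 2 or 3 or adolescent replicate 2 or 3, and falls numbered 8 without adult replicate 1. Rises among repair genes numbered 5 without adult replicate 1, and falls numbered 3 or 4 without fetal replicate 2 or 3 or adolescent replicate 2 or 3. Among histone genes the averaged replicates gave 1 rise and 1 fall, with 3 rises and 0 falls among repair genes and 1 rise and 3 falls among hypoxia genes.

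Of 29 sensors and inflammatory signalling genes, 14 rose and 1 fell (median 0.30). Il18 rose from a fetal 4.24 to 4.62 within the receptor signal to 6.67 to 6.79. Tlr3, a sensor of double-stranded RNA, rose to 6.78 to 7.36, at least 3.12-fold, and Myd88, the adaptor of most Toll-like receptors, by 1.04 ± 0.17. Of 20 complement genes, 8 rose and 0 fell (median 0.22). Vtn, vitronectin, read 5.76, 5.80 and 5.65 on the fetal arrays and 8.80, 8.72 and 8.81 on the adolescent arrays, an 8.21-fold rise. Serping1, which blocks the first complement enzymes, rose by 2.24 ± 0.10 and Cd59a, which blocks the last step, by 2.13 ± 0.44. The complement list mean was 5.91, 5.67 and 5.63 on the fetal and 6.59, 6.29 and 6.33 on the adolescent arrays, with replicate 1 highest in both stages as for the endothelial markers, whose part was not tested. Of 29 chemokine genes, 7 rose and 2 fell (median 0.14). The ligand Cxcl12 (1.28 ± 0.20) and its receptors Cxcr4 (1.32 ± 0.16) and Ackr3 (1.97 ± 0.12) all rose, and Cxcl13 fell (-1.78 ± 0.25). Of 30 cell death genes, 10 rose and 4 fell (median 0.12), with rises of Casp12 (1.38 ± 0.20) and Bok (0.95 ± 0.19) and a fall of Bcl2l11 (-0.62 ± 0.11). Falls among sensor genes numbered 0 to 2 without fetal replicate 1, 2 or 3 or adolescent replicate 1, 2 or 3 and 2 without adult replicate 1. Falls among cell death genes numbered 2 without fetal replicate 2 or 3 or adolescent replicate 2. Among sensor genes the averaged replicates gave 7 rises and 0 falls, with 5 rises and 0 falls among complement genes, 4 rises and 2 falls among chemokine genes and 5 rises and 1 fall among cell death genes.

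MicroRNA (miRNA) genes are described apart, and those named were chosen after their values were seen. A miRNA is cut from a hairpin in a longer transcript and pairs with messengers through its seed, bases 2 to 8. The probe sets cover the miRNA gene and cannot tell the hairpin, the host transcript and the mature form apart. Of 296 miRNA genes measured, 5 were higher, 37 lower and 254 did not pass (median -0.07). Over all genes, 10.1% were higher and 8.68% lower. Of the miRNA genes that passed, 14 lay within the receptor signal in both stages. Without fetal replicate 3, 23 miRNA genes were lower. Mature sequences from RefSeq (GRCm38.p6) are printed with the seed in capitals for the miRNA genes described below, grouped by location and shared seed.
miR-568: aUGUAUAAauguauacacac
miR-489-3p: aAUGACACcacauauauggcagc
miR-653-5p: gUGUUGAAacaaucucuacug
miR-17-5p: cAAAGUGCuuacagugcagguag
miR-20a-5p: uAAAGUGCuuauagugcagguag
miR-18a-5p: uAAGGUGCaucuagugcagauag
miR-19a-3p: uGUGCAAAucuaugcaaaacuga
miR-19b-3p: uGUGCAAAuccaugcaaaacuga
let-7a-5p: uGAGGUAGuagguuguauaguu
let-7g-5p: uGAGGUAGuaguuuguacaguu
miR-98-5p: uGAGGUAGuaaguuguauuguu
miR-15b-5p: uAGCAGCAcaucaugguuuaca
miR-16-5p: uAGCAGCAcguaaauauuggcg
miR-411-5p: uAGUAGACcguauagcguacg
miR-543-3p: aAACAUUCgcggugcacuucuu
miR-717: cUCAGACAgagauaccuucucu

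Of 115 miRNA genes that lie inside a protein-coding gene of either strand in RefSeq, 15 passed, while 18.8% of all genes passed. For 10 of the 15 the surrounding gene passed in the same direction, and for 5 it did not pass. The 10 are not independent, because some share a surrounding gene. Mir136, Mir337, Mir540 and Mir665 lie inside Rtl1, and 1 pair lies inside Calcr. Strand was not matched, so a surrounding gene need not be the transcript that carries the miRNA. Mir568, the miRNA gene with the largest rise and the only riser of the 5 above the receptor signal in both stages, read 6.93, 6.56 and 6.86 on the fetal arrays and 9.76, 9.34 and 9.42 on the adolescent arrays (2.72 ± 0.25). The gene around it, Tigit, a receptor of lymphocytes, did not pass (0.02 ± 0.12). Mir181b-2 fell (-1.28 ± 0.27) while Nr6a1 around it did not pass (0.27 ± 0.11). Mir653 and Mir489 lie inside Calcr. Mir489, whose mature form is known to hold satellite cells quiescent, read 4.46, 4.06 and 4.19 on the fetal arrays and 5.96, 6.29 and 6.10 on the adolescent arrays. Mir653 read 4.18, 3.58 and 3.48 on the fetal arrays and 6.13, 6.11 and 6.07 on the adolescent arrays. Both rose without overlap from within the receptor signal, at least 1.65-fold for Mir489 and 1.64-fold for Mir653. Calcr around them rose by 1.86 ± 0.09. Mir717 lies inside Gpc3 (-2.84 ± 0.14) and fell at least 2.16-fold to within the receptor signal. Mir218-1 lies inside Slit2 (-1.73 ± 0.11) and passed as lower (adjusted p = 0.00754), within the receptor signal in both stages.

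The Mir17 to Mir19b-1 cluster, known for promoting cell division, fell at all 5 of its measured genes (median -0.82). Mir18 read 6.87, 6.65 and 6.74 on the fetal arrays and 5.88, 5.92 and 5.77 on the adolescent arrays. Mir19b-1 read 6.07, 6.39 and 6.63 on the fetal arrays and 4.89, 5.46 and 5.52 on the adolescent arrays. Mir17 and Mir20a share the seed AAAGUGC, and Mir19a and Mir19b-1 share the seed GUGCAAA. Mir17 fell at least 1.28-fold and Mir19b-1 at least 1.87-fold to within the receptor signal. Mir17 did not pass without fetal replicate 2 or 3 or adolescent replicate 1 or 2 (adjusted p = 0.0793 to 0.0992). Of the 5, Mir19a and Mir20a lay within the receptor signal in both stages. Among genes with the seed AGCAGCA, Mir15b fell at least 1.01-fold to within the receptor signal. Mir16-1, within the receptor signal in both stages, passed as lower (adjusted p = 0.0170), and Mir16-2, which gives the same mature form, did not pass (adjusted p = 0.109). Mir16-1 did not pass without fetal replicate 2 or 3 or adolescent replicate 1 or 3 (adjusted p = 0.0602 to 0.0892). Of 10 let-7 genes with the seed GAGGUAG, Mir98 included, 7 did not pass. Mirlet7a-2 passed as higher (adjusted p = 0.00290) with its neighbour Mir100 (adjusted p = 0.00216), and Mirlet7g (adjusted p = 0.00652) and Mir98 (adjusted p = 0.0199) passed as lower, all 4 within the receptor signal in both stages. Mirlet7a-1, which gives the same mature let-7a as Mirlet7a-2, did not pass (adjusted p = 0.823). Mir98 did not pass without fetal replicate 1 or 3 or adolescent replicate 1 (adjusted p = 0.0581 to 0.0903).

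The Mir379 to Mir369 cluster, a long run of miRNA genes at an imprinted locus, gave 12 falls and 0 rises in limma among 29 genes (median -0.41), and 25 of the 29 differences were negative. Without adolescent replicate 1 it gave 8 falls and 1 rise. Mir411 read 5.59, 5.72 and 6.19 on the fetal arrays and 4.97, 4.87 and 4.70 on the adolescent arrays. Mir543 read 5.52, 5.95 and 6.08 on the fetal arrays and 4.86, 4.91 and 5.12 on the adolescent arrays. Both fell without overlap to within the receptor signal, at least 1.29-fold and 1.31-fold. The mean over the 29 genes was 6.22 to 6.42 on the fetal and 5.75 to 5.97 on the adolescent arrays. In the neighbouring Mir337 to Mir136 group, which lies inside Rtl1 (itself -0.47 ± 0.11), 4 of 7 genes fell and 0 rose (median -0.51), and 1 or 2 fell without fetal replicate 2 or 3 or adolescent replicate 1 or 3. Members of a cluster share a transcript and are not independent.

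**Figure D4:**
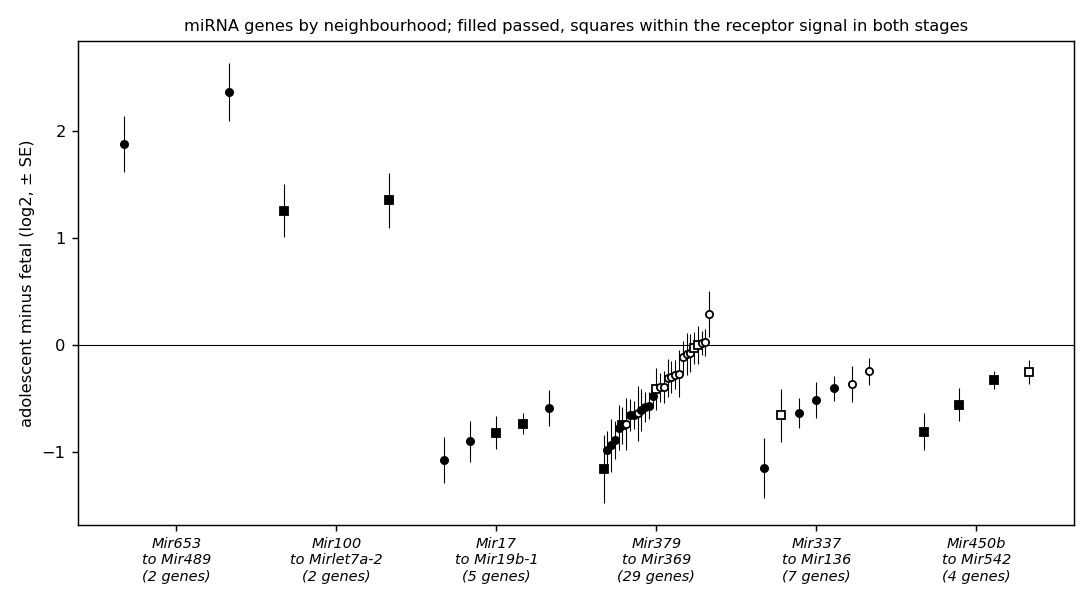
Points give the adolescent minus fetal difference (log2, with its SE) of each miRNA gene in 6 groups of neighbours, filled where the gene passed and square where both stages lay within the receptor signal (a round point may still have 1 stage within it). The Mir653 and Mir489 pair and the Mir100 and Mirlet7a-2 pair lie above 0, the 5 genes of the Mir17 cluster lie below it, and 25 of the 29 genes of the Mir379 cluster lie below it.

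Markers of other cells were measured for what the sort may have carried. No list of muscle fibre markers was among them. Of fibre genes picked after their values were seen, Pvalb rose at least 17.1-fold, Lmod2 at least 4.98-fold and Myh1 at least 3.07-fold. Each rose from within the receptor signal, while Myh3 and Ryr1 fell as given above. The part of fibre RNA in these changes was not tested. Of 23 mast cell genes, 3 rose and 9 fell (median -0.32), and the list mean ran from 5.38 to 5.57 on fetal and 5.0 to 5.08 on adolescent arrays. Cpa3, the mast cell carboxypeptidase, read 9.79, 10.04 and 9.98 on the fetal arrays and 5.79, 5.57 and 5.55 on the adolescent arrays. The tryptase Tpsb2 read 6.88, 7.26 and 7.21 on the fetal arrays and 5.70, 5.80 and 5.82 on the adolescent arrays. Both fell without overlap, as did Hdc, which makes histamine (-1.55 ± 0.17). The chymase Mcpt4 fell at least 2.10-fold to within the receptor signal. Cma1, another chymase, passed as lower (adjusted p = 0.00271), but no fold against the receptor signal can be given for it. The defining receptor chains Fcer1a and Ms4a2 lay within the receptor signal in both stages. Srgn, a proteoglycan that other blood and vessel cells also use, rose (1.41 ± 0.21). Of 13 adipocyte genes, 3 rose and 4 fell (median -0.14). Adipoq, adiponectin, read 5.94, 7.09 and 7.02 on the fetal arrays and 4.36, 4.32 and 4.34 on the adolescent arrays. Retn (-1.68 ± 0.30) and Plin1 (-1.02 ± 0.21) fell, while Fabp4 (1.18 ± 0.17), also a gene of capillaries, rose. The adipocyte mean was 6.07 to 6.50 on fetal and 6.08 to 6.17 on adolescent arrays, fetal replicate 1 being the lowest fetal array. Among mast cell genes the averaged replicates gave 1 rise and 3 falls, with 3 rises and 1 fall among adipocyte genes.

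Of 16 fibro-adipogenic and connective tissue genes, 5 rose and 3 fell (median 0.19), with list means of 7.61 to 8.21 on fetal and 7.90 to 8.06 on adolescent arrays, which overlap. Thy1 (2.24 ± 0.19) and Dpt (1.64 ± 0.14) rose, and Clec3b (-1.01 ± 0.12) and Pdgfra (-1.04 ± 0.28) fell. Pdgfra did not pass without fetal replicate 1 or adolescent replicate 1 (-0.87 to -0.69). Of 12 tendon genes, 1 rose and 3 fell (median -0.10), with list means of 7.27 to 7.60 and 7.23 to 7.34. Of 15 cartilage and bone genes, 1 rose and 4 fell (median -0.16, means 5.76 to 5.83 and 5.59 to 5.64). Of 18 neuron genes, 1 rose and 3 fell (median 0.00, means 5.71 to 5.87 and 5.59 to 5.70), Dcx among those that fell. The part of these cells in the changes of matrix, growth factor and immune genes was not tested. Falls among connective tissue genes numbered 1 without adolescent replicate 1. Falls among tendon genes numbered 0 or 1 without adolescent replicate 2 or 3. Rises among neuron genes numbered 0 without fetal replicate 3 or adolescent replicate 1, and falls numbered 1 without fetal replicate 1 and 5 without adult replicate 1. Among connective tissue genes the averaged replicates gave 3 rises and 1 fall, with 1 rise and 0 falls among tendon genes, 1 rise and 1 fall among cartilage genes and 0 rises and 1 fall among neuron genes.

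**Figure D5:**
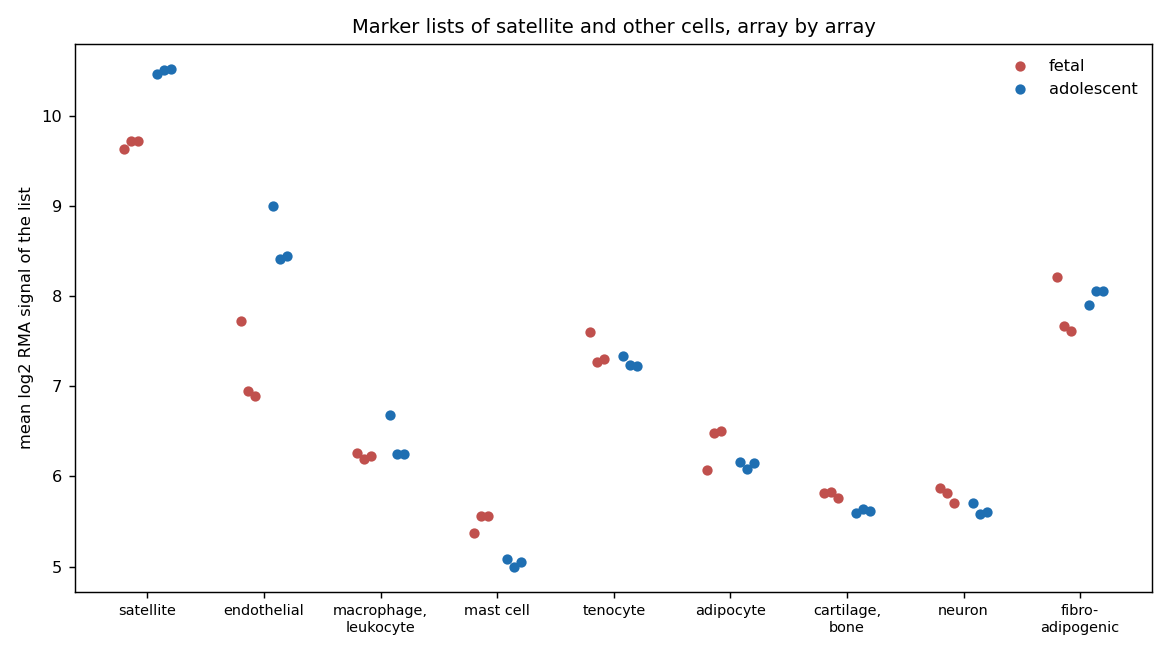
Points give the mean log2 RMA signal of each marker list on the 3 fetal and 3 adolescent arrays. The satellite and endothelial lists were higher on every adolescent than on every fetal array. The mast cell, cartilage and bone, and neuron lists were lower on every adolescent array. Replicate 1 stands above the other 2 arrays in both stages for the endothelial list, among others.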

How the data were processed

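RNA (100 ng, Ambion WT Expression kit) was hybridised to Affymetrix mouse gene arrays, per the labels' protocols. The deposited values are log2 RMA signals, for which the submitters' processing notes name Affymetrix Expression Console 1.2.1.20; the genome build is not given in the sources used here. Probe sets with exactly 1 symbol were kept (21789 of 35556), and the one with the highest mean over the 12 arrays stood for each of 19938 genes. Stage means were fitted over all 12 arrays with limma 3.58.1 in R 4.3.3 (lmFit and eBayes, 8 residual degrees of freedom). Array medians of the 6 arrays compared ran from 6.13 to 6.20, and precision is limited by there being 3 arrays a stage. On simulated data with 19938 genes the adolescent against fetal test recovered 36 of 67 genes changed 1.5-fold and 54 of 67 changed 2-fold. It also recovered 65 of 66 changed 4-fold, with 15 false calls in all. The simulated noise was independent between arrays and only these genes were changed. In the data far more genes passed and replicates 2 and 3 lay closest, so these rates may not hold here.

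Genes named were the 40 largest rises and falls (passed, no overlap, mean of at least 6 in the higher stage; without predicted, RIKEN, small RNA, receptor and antigen receptor genes), from each list the 6 (or fewer) passing members of smallest p and 2 (or fewer) others of highest mean; other list members, promoters, miRNA genes and Dbx1 were chosen after their values were seen. The lists and comparison were chosen with earlier results of these data known. Alternatives covered normalization, filters, probe sets, variance model, replicate structure and leaving out each fetal and adolescent array or adult replicate 1 (each of the 12 arrays for the difference of differences). The replicate numbers were not taken to pair the arrays: deviations of same-numbered fetal and adolescent arrays from their stage means correlated at 0.18, 0.20 and 0.03. Sequences are from RefSeq (GRCm38.p6).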

Additional observations from a re-analysis of the deposited data

How the results depend on the processing

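Higher genes numbered 2008 and lower genes 1731 as reported. Array weights gave 3986 and 4048, averaging replicates 2 and 3 of each stage 872 and 600, and a test against a 1.5-fold change 456 and 333. Lower genes numbered 2624 with only the fetal and adolescent arrays. Leaving out 1 fetal or adolescent array or adult replicate 1 gave 1511 to 2606 higher and 1157 to 2443 lower genes, the highest of these counts without adult replicate 1. The difference of differences passed for 14238 genes with array weights, 562 with the averaged replicates and 1647 to 7226 with 1 of the 12 arrays left out. With the replicate number as a block the counts were 1890 higher, 1604 lower, 992 at least 2-fold and 2115 for the difference of differences. Of 805 genes followed, 0 reversed under any alternative run. Of those, 315 no longer passed with the averaged replicates, 78 to 134 without 1 fetal or adolescent array, 78 with values under 5 set to 5, 38 with the block and 35 after centring. Of 110 list counts, 68 moved by over 1.5 times with the averaged replicates and 51 with array weights. The causes were not tested. Signals within the receptor signal limit what can be said of dim genes, and folds of the named genes with 1 stage within it are bounds.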

Other observations

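Junction proteins and mitochondrial ribosome genes were also measured. Of 27 connexins, claudins and junction proteins, 6 rose and 3 fell (median 0.04). Esam (1.52 ± 0.20) and Cldn5 (1.14 ± 0.24), both endothelial markers, rose, and so did F11r (0.95 ± 0.23), a tight junction adhesion molecule. Panx1, a membrane channel, fell by 0.58 ± 0.12, and Perp, a p53 target of desmosomes, at least 1.95-fold to within the receptor signal. Of 33 mitochondrial ribosome and biogenesis genes, 1 rose and 2 fell (median -0.19). Rises among junction protein genes numbered 3 without fetal replicate 3. Rises among mitochondrial genes numbered 0 to 2 without fetal replicate 1, 2 or 3 or adolescent replicate 1, 2 or 3, and falls numbered 0 or 1 without fetal replicate 2 or 3 or adolescent replicate 1, 2 or 3 and 7 without adult replicate 1. Among junction protein genes the averaged replicates gave 2 rises and 1 fall, with 0 rises and 0 falls among mitochondrial genes.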
